A study of Mus musculus with 2 samples.

Results

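Oligodendrocyte precursor cells are the dividing cells from which the myelin-forming oligodendrocytes of the brain arise. This account follows 10 genes that mark them: Pdgfra, Cspg4, Ptprz1, Cspg5, C1ql1, Matn4, Emid1, Pcdh15, Lhfpl3 and Cacng4. They were taken by gene symbol from the gene tables of a Seh1cKO library and a control library. All 10 were listed in both tables, out of 18651 genes listed in either, and all 10 were among the 13758 genes measured, those whose mean in the pair of libraries reached 1 CPM. CPM is a gene's reads per 1000000 reads assigned to genes in its library.

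Each group was 1 library of cultured mouse cells, so no difference given here was tested against variation between cultures or animals. The Seh1cKO cells are labelled mutant and carry a conditional knockout of Seh1l, a gene of the nuclear pore scaffold and of the GATOR complexes. The sources used here do not state the Cre driver, the deleted exons or how many animals were pooled. The control cells are labelled wild type. Both groups were C57BL/6 mice, and precursors were isolated from pup cortex at 4 to 7 days of age by immunopanning on GalC and then O4 antibody. The growth medium held bFGF and PDGF-AA at 20 ng/ml each, NT3 at 1 ng/ml and CNTF at 10 ng/ml. Differentiation was started with the thyroid hormone T3 at 60 nM, after removal of NT3, bFGF and PDGF-AA, and total RNA was taken at day 2, at the stage labelled immature oligodendrocytes. The libraries held 20599564 assigned reads in Seh1cKO and 20730083 in control. Seh1l was at 18.5 CPM in Seh1cKO and 32.1 CPM in control, 1.73-fold lower (95% counting interval 1.53 to 1.97), with reads counted over the whole gene. Sex-linked genes stood on opposite sides, with Xist at 341 CPM in Seh1cKO and 0.868 CPM in control and the Y-linked gene Eif2s3y at 1 read in Seh1cKO and 1705 reads in control, so genotype and sex cannot be told apart. None of the 10 precursor genes lies on chromosome X or Y.

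Precursors divide and migrate under platelet-derived growth factor (PDGF), which acts through the receptor that Pdgfra encodes. They carry chondroitin sulphate proteoglycans on their surface and, unlike most glia, receive synapses from neurons. Most of these marker genes are switched down as precursors become oligodendrocytes. Several are not exclusive to precursors: Pdgfra is also expressed by fibroblasts, Cspg4 by pericytes, and Ptprz1 and Cspg5 by astrocytes.

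The markers differed in both directions between the libraries. The receptor gene Pdgfra, the proteoglycan genes Cspg4, Ptprz1 and Cspg5, and the cadherin gene Pcdh15 were higher in Seh1cKO, by 1.35-fold to 1.77-fold. The genes C1ql1, Matn4 and Lhfpl3 were lower, by 2.64-fold, 1.56-fold and 1.53-fold. Cacng4 and Emid1 were near equality. Of the 10 members 1, C1ql1, was at least 2-fold lower, against 1.29% of all measured genes. No member was at least 2-fold higher, against 2.86% of all measured genes. On the deposited FPKM scale, as log2(FPKM + 1), the split over all genes was 204 higher and 148 lower, against 394 higher and 178 lower in CPM. The added 1 weighs more where a gene's FPKM is smaller than its CPM, so the 2 splits are at unlike thresholds.

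The 2-fold threshold was applied to log2(CPM + 1), which understates differences of low genes. At 1.5-fold on that scale, 2 members were higher (Pdgfra and Cspg5) and 3 were lower (C1ql1, Matn4 and Lhfpl3). The shares over all measured genes were 9.43% higher and 3.52% lower. The intervals in brackets after a ratio are exact 95% Clopper-Pearson intervals, which cover counting error only. Such an interval lay above 1 for 5 members and below 1 for 3, against 35.5% and 20.0% of all measured genes. It held 1 for the other 2, Cacng4 and Emid1, at this depth. Counting intervals are narrower with more reads. Members had at least 337 reads in each library, while measured genes reach down to a mean of 1 CPM, so these shares are at unlike depths. The median log2 ratio over the 10 members was 0.23 (order-statistic interval over members -0.64 to 0.62), and that over all measured genes was 0.07. That interval describes the spread of the 10 chosen genes, which share the same 2 libraries. It does not measure the uncertainty of a genotype effect. In bulk RNA, fewer cells of a type and less RNA per cell cannot be told apart.

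**Figure D1:**
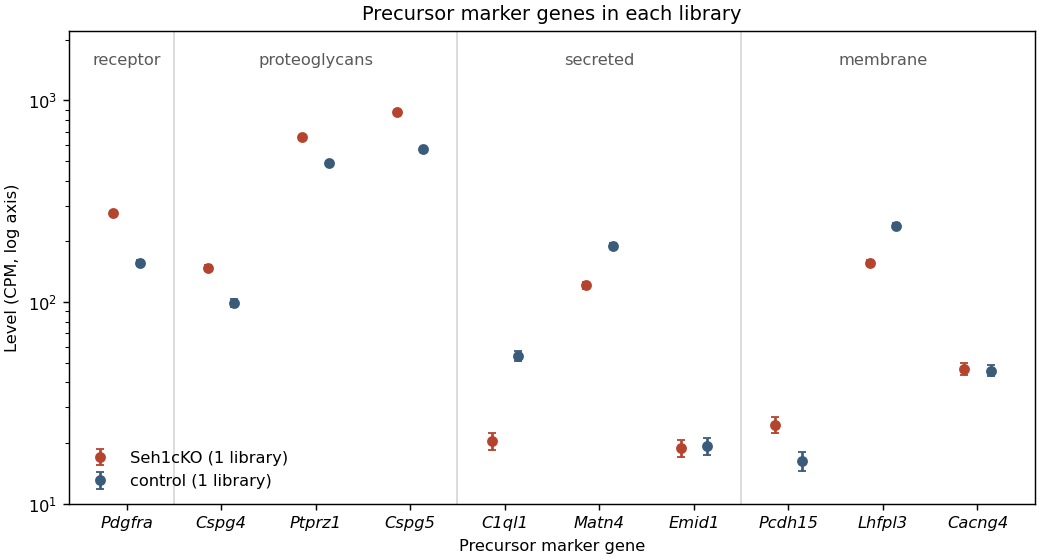
Level of each precursor marker gene in CPM on a log axis, with 1 point per library (Seh1cKO left, control right) and exact 95% Poisson intervals for counting error. The receptor gene and all 3 proteoglycan genes are higher in Seh1cKO, while C1ql1, Matn4 and Lhfpl3 are lower.

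Windows around annotated transcript starts are shown for 4 members, Pdgfra and Cspg4 from those higher in Seh1cKO and Lhfpl3 and Matn4 from those lower. Windows run from 250 bases before to 50 bases after a RefSeq transcript start, 5′ to 3′ on the gene's strand. They come from RefSeq on GRCm38.p6, the assembly behind mm10, and such a start need not be the outer end of the gene. The starts of Cspg4, Lhfpl3 and the first Matn4 window are the gene's 5′ end, that of Pdgfra lies 929 bases inside the gene and that of the second Matn4 window 342 bases inside. The table matched 7 of the 10 members, and C1ql1, Cspg5 and Cacng4 are named only. Capitals mark the letters CAGCTG, a core bound by basic helix-loop-helix factors, the protein class of Olig2.
Pdgfra, chr5:75152001-75152300, plus strand: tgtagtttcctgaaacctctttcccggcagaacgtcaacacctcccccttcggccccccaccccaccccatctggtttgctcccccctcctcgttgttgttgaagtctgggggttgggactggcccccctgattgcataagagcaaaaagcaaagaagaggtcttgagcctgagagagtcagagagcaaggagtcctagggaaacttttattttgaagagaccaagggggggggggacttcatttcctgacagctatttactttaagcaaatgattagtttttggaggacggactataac
Cspg4, chr9:56864854-56865153, plus strand: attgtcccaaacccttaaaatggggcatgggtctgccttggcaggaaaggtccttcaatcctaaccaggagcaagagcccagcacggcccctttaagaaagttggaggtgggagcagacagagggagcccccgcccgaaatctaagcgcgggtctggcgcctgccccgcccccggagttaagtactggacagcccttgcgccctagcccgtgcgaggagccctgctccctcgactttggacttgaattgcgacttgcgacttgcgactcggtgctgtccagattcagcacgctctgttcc
Lhfpl3, chr5:22745804-22746103, plus strand: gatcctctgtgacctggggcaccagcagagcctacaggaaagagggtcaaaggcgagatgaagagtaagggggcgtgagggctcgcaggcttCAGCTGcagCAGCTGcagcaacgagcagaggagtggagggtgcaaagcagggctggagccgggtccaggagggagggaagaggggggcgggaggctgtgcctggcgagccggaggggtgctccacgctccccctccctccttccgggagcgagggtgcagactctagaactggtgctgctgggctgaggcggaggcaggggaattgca
Matn4, first window, chr2:164405111-164405410, minus strand: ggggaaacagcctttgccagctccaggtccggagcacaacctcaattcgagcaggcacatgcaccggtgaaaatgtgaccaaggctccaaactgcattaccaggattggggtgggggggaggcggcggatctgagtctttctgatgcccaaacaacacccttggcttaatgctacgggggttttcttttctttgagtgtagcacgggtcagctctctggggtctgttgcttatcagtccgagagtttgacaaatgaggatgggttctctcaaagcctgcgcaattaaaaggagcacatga
Matn4, second window, chr2:164404769-164405068, minus strand: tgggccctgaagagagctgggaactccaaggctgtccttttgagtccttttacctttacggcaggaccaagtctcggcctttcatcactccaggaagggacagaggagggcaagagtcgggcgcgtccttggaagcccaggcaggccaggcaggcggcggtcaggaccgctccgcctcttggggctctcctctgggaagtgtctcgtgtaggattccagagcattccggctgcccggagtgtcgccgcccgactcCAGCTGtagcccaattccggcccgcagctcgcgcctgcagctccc

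CAGCTG, which reads the same on both strands, stood in 4 of the 9 member windows and in 16.3% of all 32851 windows of that length. Lhfpl3 held it 2 times, beginning 158 and 149 bases before the start. It stood once in the second Matn4 window, in the Emid1 window whose start lies 2248 bases inside the gene, and in the Pcdh15 window. Among the genes with these letters, Pcdh15 was higher in Seh1cKO, Emid1 near equality, and Lhfpl3 and Matn4 lower. A relation of the letters to direction was not tested. The Pcdh15 start lies 725590 bases inside that gene, so its window is not at the gene's outer 5′ end. The windows of Pdgfra, Cspg4 and Ptprz1, and the other windows of Matn4 and Emid1, did not contain these letters. AACAAT, a core bound by Sox factors, stood in none of the 9 windows on either strand, and in 10.7% of all windows. TATAAA stood in 1 of the 9, that of Pcdh15, beginning 33 bases before this internal start, and in 13.6% of all windows. The motifs do not overlap in these windows, and a match is a description of letters only. The GC share ranged from 50.7% in Pcdh15 to 77.3% in a window of Emid1, and its median over all windows was 52.7%.

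Pdgfra encodes the alpha receptor for PDGF, the mitogen that had been withdrawn from both cultures. On GRCm38.p6 its gene spans chromosome 5 from 75151322 to 75198206. Pdgfra had 5696 reads (277 CPM) in Seh1cKO and 3235 reads (156 CPM) in control. That is 1.77-fold higher (1.70 to 1.85), and 95.2% of all measured genes had a lower log2 ratio. It was the member with the largest positive ratio. Fibroblast and mural markers were also higher in Seh1cKO: 9 of the 10 measured were higher and 6 were at least 2-fold higher. Their summed level over 12 genes was 623 CPM in Seh1cKO and 211 CPM in control, and none was at 0 in either library. The largest differences were in the collagen and matrix genes Dcn (6.88-fold), Lum (6.32-fold), Col3a1 (4.93-fold) and Col1a1 (4.08-fold). The mural channel genes Kcnj8 and Abcc9, chosen after their values were known, were under 1 CPM in both libraries. The part of these cells in the Pdgfra value was not tested.

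Other genes of the PDGF system were read from lists of ligands and receptors and of signalling proteins. Of 6 ligand and receptor genes, 2 were at least 2-fold higher and none lower. These were Pdgfrb, the beta receptor of mural cells and fibroblasts, at 28.3 CPM in Seh1cKO and 8.10 CPM in control (3.49-fold, 2.93 to 4.16), and the ligand gene Pdgfb at 7.62 CPM in Seh1cKO and 2.56 CPM in control (2.98-fold, 2.17 to 4.15). Pdgfc was 1.32-fold higher (1.09 to 1.60) and the receptor-like gene Pdgfrl 1.33-fold lower (1.16 to 1.53). Pdgfa, chosen here after its value was known, encodes the ligand whose protein was withdrawn and stood at 96.1 CPM in Seh1cKO and 112 CPM in control, 1.17-fold lower (1.10 to 1.24). All 12 signalling genes stayed within 2-fold, as did 13186 of the 13758 measured genes. Their median log2 ratio was 0.07, and that over all measured genes was also 0.07. The adaptor gene Shc1 was 1.98-fold higher (1.82 to 2.16) and the kinase gene Fyn was lower, at 461 CPM in Seh1cKO and 690 CPM in control. Pik3r1, a regulatory subunit of phosphatidylinositol 3-kinase, was 1.31-fold higher (1.26 to 1.36).

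Cspg4 (chromosome 9, 56865104 to 56899870) encodes NG2, a large transmembrane proteoglycan whose name is often used for the precursors themselves. Cspg4 had 3050 reads (148 CPM) in Seh1cKO and 2048 reads (98.8 CPM) in control, 1.499-fold higher (1.42 to 1.59). The Pdgfra level was 2.30 times the Cspg4 level per length in Seh1cKO and 1.94 times in control. Mural cells also express Cspg4. Of the mural genes on the list, Rgs5 (1.62-fold), Acta2 (1.76-fold), Tagln (1.68-fold) and Pdgfrb were higher in the same library. Vtn was at 1.21 CPM in Seh1cKO and 1.35 CPM in control, a ratio of 0.899 (0.502 to 1.598), and the intervals of Kcnj8 and Abcc9 held 1. The part of mural cells in the Cspg4 value was not tested, and Rgs5, Acta2 and Vtn were chosen after their values were known.

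Ptprz1 (chromosome 6, 22875315 to 23052916) encodes a receptor phosphatase that carries chondroitin sulphate and binds pleiotrophin. Ptprz1 had 13526 reads (657 CPM) in Seh1cKO and 10107 reads (488 CPM) in control, 1.35-fold higher (1.31 to 1.38). Its deposited transcript length, an average over 2 isoforms, was 7307 bases in Seh1cKO and 7200 bases in control, 1.49% longer. Over 4495 measured genes with several transcripts the median absolute change was 0.310%, and 79.6% of them changed by less than Ptprz1. The ligand gene Ptn, chosen after its value was known, stood at 413 CPM in Seh1cKO and 408 CPM in control, a ratio of 1.01 (0.983 to 1.04).

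Cspg5 (chromosome 9, 110243783 to 110262576) encodes neuroglycan C, a transmembrane proteoglycan of the nervous system with an EGF-like domain. Cspg5 had 18092 reads (878 CPM) in Seh1cKO and 11829 reads (571 CPM) in control, 1.54-fold higher (1.504 to 1.58). It was the most highly expressed member in both libraries. Together Cspg5 and Ptprz1 held 65.4% of all member reads in Seh1cKO and 56.4% in control. The 10 members summed to 2347 CPM in Seh1cKO and 1876 CPM in control, 1.25-fold higher (1.23 to 1.27). Without Cspg5 and Ptprz1 the other 8 summed to 812 CPM in Seh1cKO and 818 CPM in control, a ratio of 0.992 (0.971 to 1.01). A further 22 precursor genes, described below, were mixed, with 10 higher and 12 lower. They summed to 4589 CPM in Seh1cKO and 5689 CPM in control, 1.24-fold lower. That sum includes Ncan, at 1341 CPM in Seh1cKO and 2040 CPM in control, and Bcan, at 460 CPM in Seh1cKO and 962 CPM in control.

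Astrocytes also express Ptprz1 and Cspg5, and astrocyte markers were mostly lower in Seh1cKO. Of 10 astrocyte genes 8 were lower, 2 of them at least 2-fold, and none was at 0. Those 2 were Gfap and S100b, the latter at 19.9 CPM in Seh1cKO and 80.4 CPM in control (4.05-fold lower, 3.63 to 4.52). The 10 genes summed to 7416 CPM in Seh1cKO and 11500 CPM in control. Of this, Gfap made up 2214 CPM in Seh1cKO and 5200 CPM in control. Atp1b2 was at 2228 CPM in Seh1cKO and 2873 CPM in control. Slc1a3 was at 1072 CPM in Seh1cKO and 1227 CPM in control. The 2 higher genes were Gja1 (1.40-fold, 1.33 to 1.48) and Aldh1l1 (1.17-fold, 1.13 to 1.20). Aldh1l1 was chosen after its value was known. The part of astrocytes in the Ptprz1 and Cspg5 values was not tested.

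Of the 3 genes for secreted proteins, C1ql1 had the largest difference. C1ql1 (chromosome 11, 102939264 to 102946716) encodes a small protein with a C1q domain, known at synapses as a ligand of the receptor Adgrb3 (Bai3). C1ql1 had 421 reads (20.4 CPM) in Seh1cKO and 1118 reads (53.9 CPM) in control, 2.64-fold lower (2.36 to 2.96). Only 0.654% of all measured genes had a lower log2 ratio. Its paralog C1ql3 was at 12.6 CPM in Seh1cKO and 9.94 CPM in control, 1.27-fold higher (1.05 to 1.53), and C1ql2 and C1ql4 were under 1 CPM in both libraries. Adgrb3 was at 65.4 CPM in Seh1cKO and 64.4 CPM in control, a ratio of 1.02 (0.941 to 1.10). These 4 genes were named after their values were seen.

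C1ql1 was the 1 member among the 896 genes of the authors' deposited table for this comparison. The authors' deposited table gives it a log2 fold change of -1.40 and a false discovery rate of 2.33e-70, from 1 library per group and by a test that the sources used here do not name. The smallest absolute log2 fold change in the authors' deposited table is 1.00, and the other 9 members were within 2-fold.

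Matn4 (chromosome 2, 164389393 to 164405160) encodes matrilin-4, an adaptor protein of the extracellular matrix. Matn4 had 2494 reads (121 CPM) in Seh1cKO and 3922 reads (189 CPM) in control, 1.56-fold lower (1.49 to 1.64). The gene Rbpjl overlaps the 5′ end of Matn4 on the opposite strand, from 164403081 to 164415448. Rbpjl was at 8.35 CPM in Seh1cKO and 13.1 CPM in control, a ratio of 0.639 (0.525 to 0.776), beside 0.640 for Matn4. Since the strand setting of the counting is not given, reads of the overlapping stretch cannot be assigned to either gene with certainty. Emid1, which encodes a matrix protein with an EMI domain, lies on chromosome 11 from 5106265 to 5152322. Emid1 had 388 reads (18.8 CPM) in Seh1cKO and 399 reads (19.2 CPM) in control, a ratio of 0.979 (0.849 to 1.13). The 3 secreted genes summed to 160 CPM in Seh1cKO and 262 CPM in control, 1.64-fold lower (1.57 to 1.71).

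The remaining 3 members encode membrane proteins of different kinds: Pcdh15 was higher, Lhfpl3 lower and Cacng4 near equality. Pcdh15 (chromosome 10, 73096277 to 74649831) encodes a protocadherin of the tip links of inner ear hair cells. Pcdh15 had 506 reads (24.6 CPM) in Seh1cKO and 337 reads (16.3 CPM) in control, 1.51-fold higher (1.31 to 1.74). Its hair cell partner Cdh23, chosen after its value was known, stood at 3.11 CPM in Seh1cKO and 1.45 CPM in control (2.15-fold, 1.37 to 3.43).

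Lhfpl3 (chromosome 5, 22746054 to 23275597) encodes a protein with 4 membrane spans, of the LHFPL family. Lhfpl3 had 3209 reads (156 CPM) in Seh1cKO and 4955 reads (239 CPM) in control, 1.53-fold lower (1.47 to 1.60). The lncRNA gene A930003O13Rik overlaps its start on the opposite strand and was at 5.49 CPM in Seh1cKO and 13.3 CPM in control, a ratio of 0.412 (0.328 to 0.515). The paralog Lhfp was 1.55-fold higher (1.43 to 1.68).

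Cacng4 (chromosome 11, 107732357 to 107794706) encodes an auxiliary subunit of AMPA-type glutamate receptors. Cacng4 had 959 reads (46.6 CPM) in Seh1cKO and 948 reads (45.7 CPM) in control, a ratio of 1.02 (0.930 to 1.11). Its sign turned negative under median-of-ratios and TMM scaling and after centring on genes of like GC share. Its paralog Cacng5 was at 113 CPM in Seh1cKO and 56.5 CPM in control, 2.00-fold higher (1.86 to 2.15). The deposited length of Cacng4 is 984 bases, the same as its coding length in GENCODE, where the longest transcript has 3500 bases. Whether reads in its untranslated parts were counted is not stated.

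**Figure D2:**
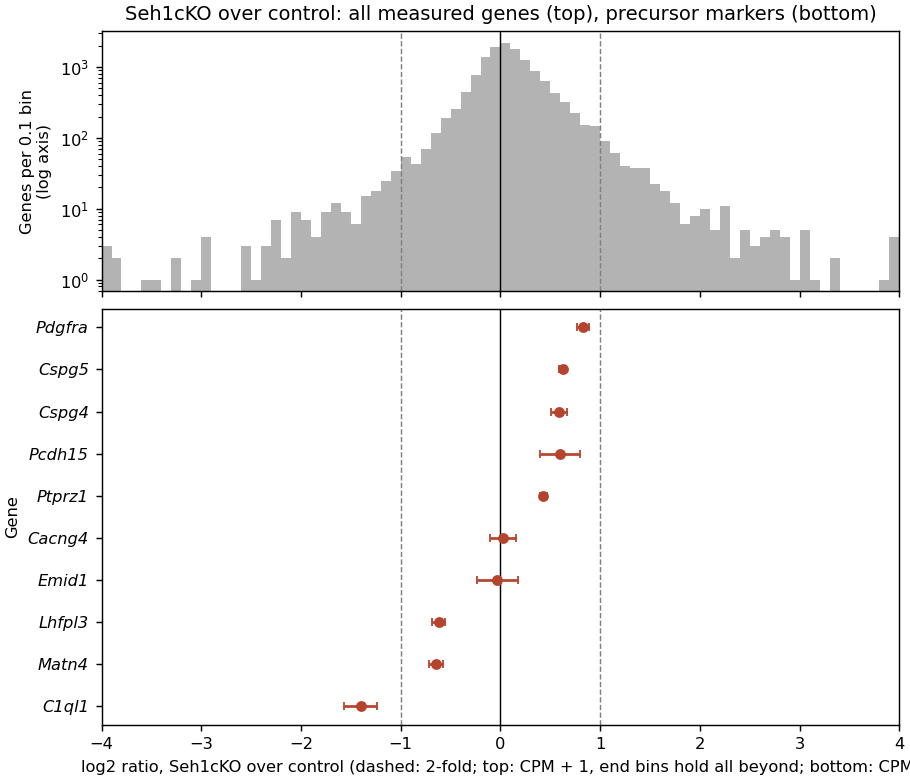
Top, number of measured genes per bin of log2 ratio of CPM + 1, Seh1cKO minus control, on a log axis, with the end bins holding all genes beyond. Bottom, log2 ratio of CPM for each precursor marker gene with its exact 95% counting interval; dashed lines mark 2-fold. C1ql1 alone lies beyond 2-fold, and the intervals of Cacng4 and Emid1 cross equality.

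Levels of different genes were compared per length, in the authors' FPKM. In Seh1cKO, Cspg5 (229 FPKM) led, followed by Ptprz1 (88.6), Lhfpl3 (52.8), Matn4 (50.8), Cacng4 (48.2), Pdgfra (41.6), Cspg4 (18.1), C1ql1 (16.4), Emid1 (9.86) and Pcdh15 (2.68), all levels in FPKM. Neighbours whose counting intervals overlapped there were Lhfpl3 and Matn4, Matn4 and Cacng4, and Cspg4 and C1ql1. In control the order of FPKM levels was Cspg5 (149), Lhfpl3 (81.0), Matn4 (79.6), Ptprz1 (66.8), Cacng4 (47.4), C1ql1 (43.3), Pdgfra (23.5), Cspg4 (12.1), Emid1 (10.1) and Pcdh15 (1.76). Overlapping neighbours in control were Lhfpl3 with Matn4 and Cacng4 with C1ql1. The first and the last 2 places were held by the same genes in both libraries, and Ptprz1, Pdgfra and Cspg4 stood higher in the order in Seh1cKO. The place of Cacng4 rests on its deposited length of 984 bases, and would be lower if its reads came from a longer transcript. The FPKM of Cspg5 has the same limit. Its deposited length in control was 3802 bases, and its longest transcript in GENCODE has 7868 bases.

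For pairs chosen as 1 higher and 1 lower member, the ratio within a library restates both differences on 1 scale. Pdgfra was at 2.54 times the FPKM of C1ql1 in Seh1cKO and at 0.543 times in control. Cspg5 was at 4.51 times the FPKM of Matn4 in Seh1cKO and at 1.87 times in control. Ptprz1 was at 1.68 times the FPKM of Lhfpl3 in Seh1cKO and at 0.825 times in control. Among all listed genes, 98.1% had a lower FPKM than Cspg5 in Seh1cKO and 96.7% in control. Pcdh15, the lowest member, exceeded 39.6% of listed genes in Seh1cKO and 35.2% in control.

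The members with long transcripts were those that were higher. Ordered by deposited transcript length, the 5 longest (Cspg5, Pdgfra, Ptprz1, Cspg4 and Pcdh15, 3803 to 9068 bases) had log2 ratios from 0.43 to 0.82. The 5 shortest (Cacng4, C1ql1, Emid1, Matn4 and Lhfpl3, 984 to 2933 bases) had log2 ratios from -1.36 to 0.03. Across the 10 genes the Spearman coefficient of length and log2 ratio was 0.65, a description of genes that share the same 2 libraries. Over all 13273 measured genes with a GC value it was 0.14. With all measured genes split by length into 10 bins, the median log2 ratio was 0.01 in the shortest bin and 0.15 in the longest. Centring each gene on the median of its length bin, an alternative chosen after seeing the data, gave 0.67 for Pdgfra, 0.43 for Cspg4, 0.28 for Ptprz1 and 0.42 for Pcdh15 on the log2 scale. It gave -1.37 for C1ql1 and -0.71 for Lhfpl3, and left 1 member at least 2-fold lower and none higher.

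**Figure D3:**
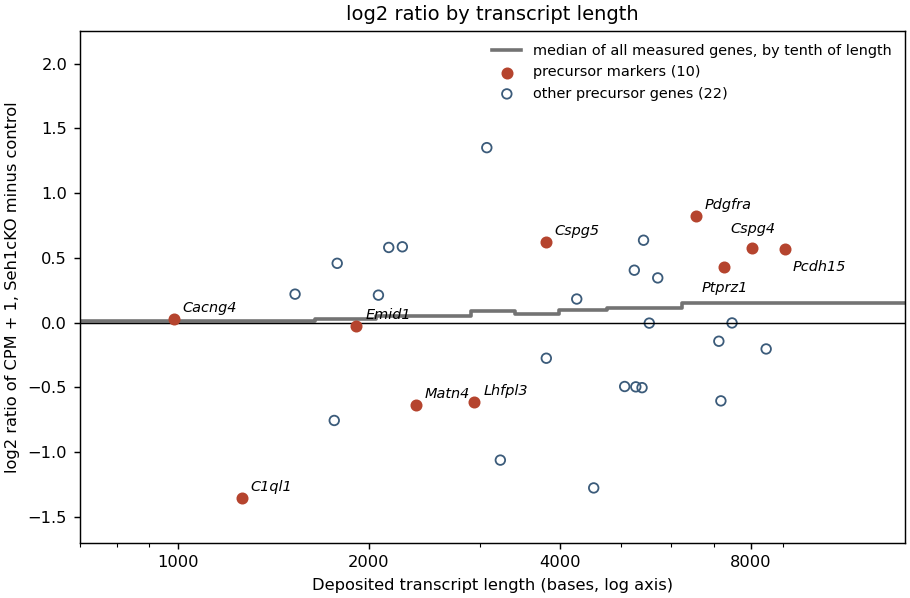
log2 ratio of CPM + 1, Seh1cKO minus control, against deposited transcript length in bases on a log axis, for the 10 precursor markers (filled) and 22 other precursor genes (open). The grey line is the median of all measured genes in each of 10 length bins, and it spans 0.01 to 0.15. The 5 longest precursor markers lie above it and the 5 shortest at or below it, except Cacng4.

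A further 22 genes known from precursors were read for context. All were measured, 1 was at least 2-fold higher, 2 were at least 2-fold lower and 19 were within 2-fold, with a median log2 ratio of -0.0033. Xylt1, an enzyme that starts the sugar chains of proteoglycans, was at 10.5 CPM in Seh1cKO and 3.52 CPM in control (2.99-fold higher, 2.28 to 3.96). The brain proteoglycan gene Bcan was at 460 CPM in Seh1cKO and 962 CPM in control (2.09-fold lower, 2.04 to 2.14). The sialidase gene Neu4 was at 13.0 CPM in Seh1cKO and 32.9 CPM in control (2.53-fold lower, 2.20 to 2.93), and Tmem100 was 1.81-fold lower (1.44 to 2.30). The Spearman coefficient of length and log2 ratio over these 22 genes was -0.21, a weak relation of the opposite sign to that of the 10 markers. Of the 14 such genes at least as long as Cspg5, 4 were higher, and of the 6 no longer than Lhfpl3, 5 were higher. Over all measured genes with a GC value, 68.2% of those at least as long as Cspg5 and 55.9% of those no longer than Lhfpl3 were higher.

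Binding partners and paralogs of the members were mostly higher, 16 of 21 and 11 of 13 measured genes. Most measured genes were also higher in CPM, from 52.2% in the shortest to 72.2% in the longest of the 10 length bins. Of the binding partner genes 3 were at least 2-fold higher and none lower, with a median log2 ratio of 0.23. Those 3 were Lgals3 (3.39-fold, 2.90 to 3.97), a galectin that binds NG2, the matrix gene Tnc (2.85-fold, 2.71 to 3.00), a Ptprz1 ligand, and the collagen gene Col6a2 (2.32-fold, 1.99 to 2.72). Col6a1 was 1.79-fold higher (1.64 to 1.95). Fibroblasts also express Tnc and the collagen VI genes; the fibroblast markers given with Pdgfra were higher in the same library, and their part was not tested. Of 13 measured paralogs 1, Pdgfrb, was at least 2-fold higher and none lower, with a median of 0.32. Col26a1, a relative of Emid1, was 1.66-fold higher (1.30 to 2.12).

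Genes of later stages had other values in the same libraries, and the difference between the lists was not tested. Of 19 genes of newly formed oligodendrocytes, 11 were at least 2-fold lower and none was at least 2-fold higher, with a median log2 ratio of -1.28. By less than 2-fold, 2 of the 19 were higher. Of 13 measured myelin genes, 10 were at least 2-fold lower and 3 at least 2-fold higher, with a median of -2.01. The 3 higher ones were Mal, Trf and Apod, named after their values were known. Tmem163 was at 6.50 CPM in Seh1cKO and 69.6 CPM in control, and Mag at 8.74 CPM in Seh1cKO and 144 CPM in control. The median of the 10 precursor markers in the same comparison was 0.23. All 12 proliferation genes were higher. At least 2-fold higher were 2 of them, and 1 under median-of-ratios or TMM scaling, FPKM, a pseudocount of 5 CPM or either centring. Ccnd1 was at 1348 CPM in Seh1cKO and 495 CPM in control. Of 8 neuron markers 6 were higher, with a median log2 ratio of 0.70. Their sum was 460 CPM in Seh1cKO and 427 CPM in control, of which Map2 made up 270.1 CPM in Seh1cKO and 279 CPM in control. Markers of endothelium summed to 25.4 CPM in Seh1cKO and 11.1 CPM in control. Most of that difference was Cdh5, at 13.8 CPM in Seh1cKO and 1.01 CPM in control, while Kdr was at 4.95 CPM in Seh1cKO and 5.35 CPM in control. Those of microglia summed to 18.0 CPM in Seh1cKO and 8.39 CPM in control, and only 4 of the 7 were measured, all higher. Cd68 was at 8.30 CPM in Seh1cKO and 3.67 CPM in control, and Tmem119 at 4.17 CPM in Seh1cKO and 0.868 CPM in control. The intervals of the other measured genes, Cx3cr1 and P2ry12, held 1. The endothelial gene Cldn5 had 1 read in Seh1cKO and 0 in control.

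**Figure D4:**
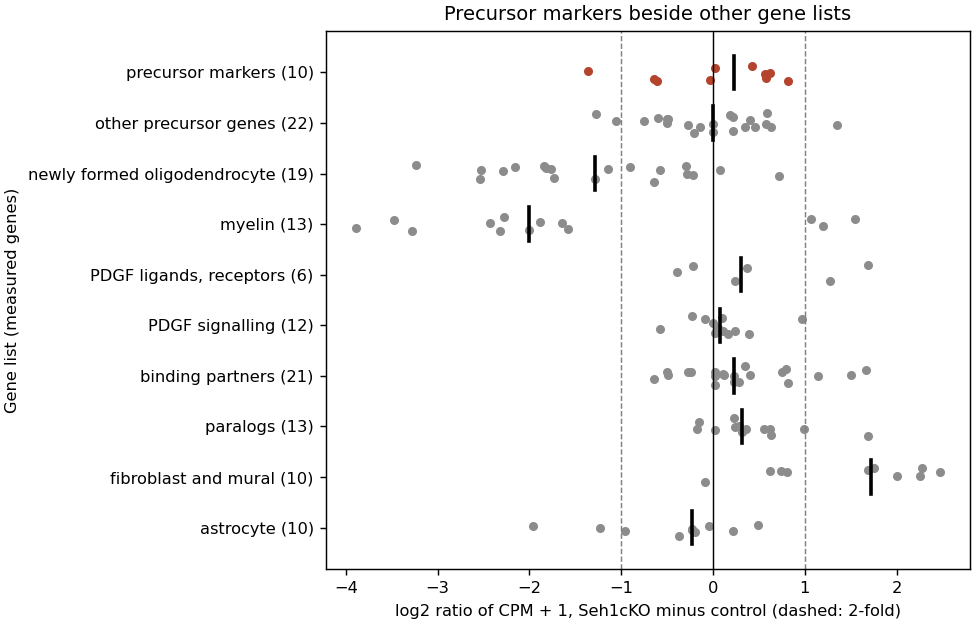
log2 ratio of CPM + 1, Seh1cKO minus control, for each measured gene (point) of 10 lists, with the list median as a black bar and dashed lines at 2-fold. Points are spread vertically for legibility. The precursor markers (median 0.23) lie on both sides of equality, and the newly formed oligodendrocyte and myelin genes (medians -1.28 and -2.01) lie mostly below it.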

How the data were processed

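RNA sequencing was deposited as 1 gene table per library, for Seh1cKO and control cells. Per the file headers, the authors give an expected count, an FPKM value and a transcript length per gene; genes without reads are left out and were set to 0. HTSeq, StringTie and mm10 are named, per the submitters' processing notes, without roles; aligner and strand setting are not stated. The authors' deposited table of the comparison gives log2 fold changes, FPKM, p-values and false discovery rates. No column of per-sample values was left unmapped (0).

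Members were matched by symbol and other genes by Entrez identifier, of which 18611 of 18651 were in the RefSeq table of GRCm38.p6, the source of coordinates. Expected counts were whole within 0.01 for 6 of the 10 members and were not for Ptprz1, Lhfpl3, Pcdh15 and Matn4. They were rounded and scaled to CPM. The log2 ratio is log2(CPM + 1) in Seh1cKO minus control, for genes at a mean of at least 1 CPM; folds of single genes are CPM ratios without the pseudocount. Ratios have exact 95% Clopper-Pearson intervals and levels exact Poisson intervals, without molecular identifiers, so they cover counting error only. With 1 library per group no test, replicate check or paired fit was possible. GC shares came from GENCODE M21 transcripts and were found for 96.5% of measured genes. The computation was tested on simulated data. Software was Python 3.11.15, numpy 2.4.6, pandas 2.3.3, scipy 1.17.1, matplotlib 3.10.9, and edgeR 4.0.16 for TMM factors.

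The members and gene lists were chosen with earlier results of these data known. Named genes were all members, the 4 largest absolute log2 ratios of each other list, the 3 most abundant genes of marker lists, and Seh1l; others are marked as chosen after their values were known. Not every gene the rule picks is printed. No genes were named by likeness of pattern, since 2 libraries give 1 ratio per gene. Alternatives were pseudocounts of 0.1 and 5 CPM, median-of-ratios and TMM scaling, FPKM, no floor or 5 CPM, leaving out chromosomes X and Y, unrounded counts, a 1.5-fold threshold and, added after seeing the data, centring by length or GC. The FPKM alternative used log2(FPKM + 1).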

Additional observations from a re-analysis of the deposited data

How the results depend on the processing

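The members' counts, 1 at least 2-fold lower and 0 at least 2-fold higher, were the same under every alternative except the 1.5-fold threshold, which gave 3 lower and 2 higher. Each member but Cacng4 kept its sign in all 11 alternatives that recomputed its log2 ratio. Cacng4 ranged from -0.06 to 0.03 and changed sign in 3. Pdgfra ranged from 0.67 to 0.82, C1ql1 from -1.44 to -1.21, Matn4 from -0.72 to -0.62 and Lhfpl3 from -0.71 to -0.60.

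Over all genes, the number at least 2-fold higher was 394 in the main setting, 637 with a pseudocount of 0.1 CPM, 141 with 5 CPM, 204 on the FPKM scale, 228 with a floor of 5 CPM and 1297 at 1.5-fold. The number lower was 178, against 116 with a pseudocount of 5 CPM and 484 at 1.5-fold. With a pseudocount of 5 CPM 0 other precursor genes were at least 2-fold higher, and 1 PDGF ligand or receptor gene was, as it was on the FPKM scale. The number of sequenced libraries, 1 per group, limits every comparison. No paired analysis was possible because each group has 1 library.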
